A study of Mus musculus with 12 samples.

Results

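The 12 libraries of the series, each made from a mammary fat pad, were ranked by their level of Ckm, the creatine kinase of skeletal muscle. Both sides were chosen by this measured level: the 6 highest are called muscle-rich and the 6 lowest muscle-poor. Levels are CPM, reads scaled to a library total of 1000000, where the total leaves out both mitochondrial rRNA genes (mt-Rnr1, mt-Rnr2). All 12 pads came from female C57BL/6 mice at postnatal day 84, 4 weeks after folic acid supplementation at 5 mg/kg (6 libraries) or 1 mg/kg (6 libraries). No untreated group was analysed here. The right thoracic pad was taken whole, so a library holds RNA of every tissue in the sample. The labels do not say that the libraries are separate animals, so a p-value measures the spread between these samples.

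The thoracic mammary pads of the mouse lie over the muscles of the chest wall and beneath the thin muscle sheet of the skin. Skeletal muscle fibres are classed by the myosin heavy chain they carry: Myh4, Myh1 and Myh2 belong to fast fibres and Myh7 to slow fibres. Fast fibres of the Myh4 kind draw on glycogen and creatine phosphate, while slow fibres hold more mitochondria and burn more fat. In bulk RNA a lower level can come from fewer cells of a type or from less RNA per cell, and the counts cannot tell them apart.

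Ckm (ENSMUSG00000030399, chromosome 7, 19404776 to 19422841, plus strand, GRCm38) chose the sides. Its level in the muscle-rich libraries was 3613 CPM at the lowest, 4465 at the median and 7667 at the highest. In the muscle-poor libraries it was 1315, 2296 and 2950 CPM. The 12 levels formed a series with no wide gap at the border. As a ratio, the step there was larger than the steps beside it and smaller than those at both ends of the series. The last muscle-rich library, 5 mg/kg replicate 1, held 3613 CPM and the first muscle-poor library, 5 mg/kg replicate 3, held 2950, a ratio of 1.23, against 5.83 from the highest library to the lowest. The muscle-poor pads were not free of muscle RNA: 75 muscle genes took 5.31% to 10.2% of their reads, against 9.15% to 18.8% in the muscle-rich pads. Since Ckm set the sides and comes from the same RNA as every other gene, the differences between the sides below are descriptions, with standard errors over 6 and 6 libraries and no test.

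The promoters of Ckm, of the markers Acta1 and Myh4 and of the slow troponin gene Tnnt1 are shown because the first 3 genes kept close to one another across the pads and the last did not. The windows come from RefSeq (GRCm38.p6) and run from 250 bases before to 50 bases after a start annotated there. RefSeq and GENCODE starts can differ: the Ckm and Myh4 windows do not contain the GENCODE gene starts given in the text, and positions count from the RefSeq start. Capitals mark the E-box CAGCTG, the CArG box and TATAAA, each searched on both strands. The E-box is the letters that MyoD-family factors bind, and the CArG box is the site of serum response factor.
Ckm (chr7:19410844-19411143, + strand): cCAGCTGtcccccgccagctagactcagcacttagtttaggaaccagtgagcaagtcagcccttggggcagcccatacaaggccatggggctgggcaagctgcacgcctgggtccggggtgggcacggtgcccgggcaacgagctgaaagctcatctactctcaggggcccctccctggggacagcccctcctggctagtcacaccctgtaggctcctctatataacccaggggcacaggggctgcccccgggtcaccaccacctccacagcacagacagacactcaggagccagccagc
Acta1 (chr8:123894726-123895025, - strand): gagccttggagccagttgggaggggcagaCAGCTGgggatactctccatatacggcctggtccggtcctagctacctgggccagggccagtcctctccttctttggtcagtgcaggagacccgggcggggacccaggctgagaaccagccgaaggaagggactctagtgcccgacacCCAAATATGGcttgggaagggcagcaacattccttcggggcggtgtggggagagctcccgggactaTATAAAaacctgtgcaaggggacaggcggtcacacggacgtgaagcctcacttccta
Myh4 (chr11:67237562-67237861, + strand): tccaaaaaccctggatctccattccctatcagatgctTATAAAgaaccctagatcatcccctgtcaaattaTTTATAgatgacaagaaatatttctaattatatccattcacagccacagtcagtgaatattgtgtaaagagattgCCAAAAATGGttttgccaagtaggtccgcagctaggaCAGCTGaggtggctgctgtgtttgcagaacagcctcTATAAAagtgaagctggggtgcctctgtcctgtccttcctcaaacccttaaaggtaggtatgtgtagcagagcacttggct
Tnnt1 (chr7:4515926-4516225, - strand): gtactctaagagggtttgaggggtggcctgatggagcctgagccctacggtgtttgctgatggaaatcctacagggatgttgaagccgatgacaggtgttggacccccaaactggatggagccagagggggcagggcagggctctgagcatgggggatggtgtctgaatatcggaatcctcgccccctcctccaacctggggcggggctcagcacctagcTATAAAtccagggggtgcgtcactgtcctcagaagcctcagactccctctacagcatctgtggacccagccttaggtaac
CAGCTG began at base -249 from the RefSeq start in Ckm, -221 in Acta1 and -67 in Myh4, and the Tnnt1 window did not hold these letters. Acta1 also held a CArG box at -73 and Myh4 one at -104. The same E-box letters were in 3 of the 8 windows found for the fast sarcomere genes (37.5%), 8 of 14 for sarcomere genes shared by fibre types (57.1%) and 4 of 11 for the slow sarcomere genes (36.4%). They were in 4 of 33 for nuclear genes of respiratory complex I (12.1%) and in 4353 of 27025 over all genes (16.1%). The wider form CANNTG was in 6 of 8 fast windows (75%), 12 of 14 shared (85.7%) and 11 of 11 slow (100%). The slow windows include that of Tnnt1, so the wider form did not set Tnnt1 apart. CANNTG was in 23 of 33 windows for complex I (69.7%) and 19498 of 27025 over all genes (72.15%). A match is only a run of letters, and binding was not measured here.

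Acta1 (ENSMUSG00000031972, chromosome 8, 123891769 to 123894751, minus strand), the actin of skeletal muscle, followed the ranking. Its muscle-rich libraries held 5146, 6506 and 9688 CPM (lowest, median, highest) and its muscle-poor libraries 2357, 3402 and 4178. No muscle-poor library reached a muscle-rich one, and the difference of mean log2(CPM + 0.1) was 1.01 ± 0.19 (SE, n = 6 and 6). Myh4 (ENSMUSG00000057003, chromosome 11, 67238029 to 67260446, plus strand), the heavy chain of the fastest fibres, held 14058, 19034 and 36150 CPM against 6594, 10211 and 14888. Its difference was 0.95 ± 0.26, and 1 pair of libraries overlapped: 5 mg/kg replicate 4 on the muscle-rich side, at 14058, lay below 5 mg/kg replicate 6 on the muscle-poor side, at 14888. The label muscle-rich therefore held for both markers that did not set the ranking, with this overlap in Myh4.

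**Figure D1:**
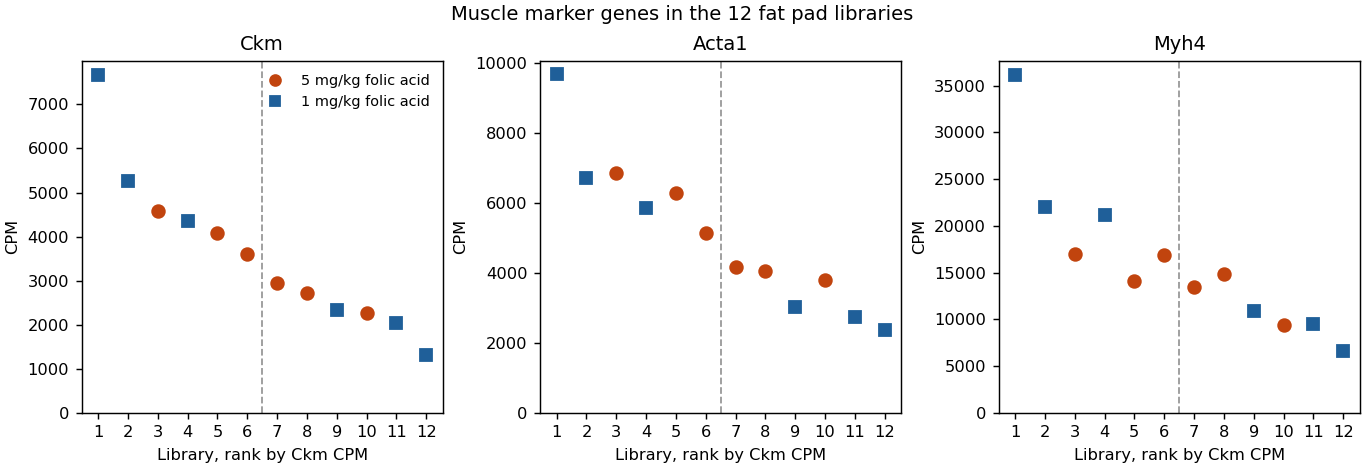
CPM of 3 muscle genes (vertical axes, starting at 0) in the 12 libraries ordered by Ckm rank (horizontal axes), coloured by folic acid group, with a dashed line between the 6 highest and the 6 lowest. Acta1 has no overlap across the line, and Myh4 has 1 muscle-rich library at 14058 CPM under a muscle-poor one at 14888.

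Over the 18615 genes tested other than Ckm, the libraries of the sides did not overlap in 257 genes that were higher in the muscle-rich pads (1.38%) and in 242 that were lower (1.3%). The median difference over all genes was -0.32 on the log2 scale, so a gene at 0 lay above most others. Scaling by TMM, which aligns the bulk of genes, moved the median by 0.27 and turned the split from 51.5% higher to 93.3% higher. Leaving the 75 muscle genes out of the library total gave 81.1% higher, and putting the mitochondrial rRNA back into it gave 11.5%. The medians of the sarcomere, calcium, glycolysis, respiratory chain, citric acid cycle and fatty acid oxidation lists stayed positive under these 3 scalings. Several genes named here share exon bases with another annotated gene, and their levels are uncertain to that extent: Ckm, Myh1, Myh2, Myh7, Atp2a1, Cacna1s, Ryr1, Des, Ttn, Pfkm, Aldoa, Hk1, Fabp3, Ckmt2, Mb, Hadha, Cox6a2, mt-Co1, Myoc, Plet1os, Gmpr and Ccnd2.

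Of the 31 gene lists, the fast sarcomere genes followed Ckm most closely. All 12 were higher in the muscle-rich pads, with a median difference of 1.05, and 10 of the 12 did not overlap. Mylpf, the regulatory light chain of fast myosin, held 1073, 1280 and 2046 CPM against 374, 716 and 809, a difference of 1.05 ± 0.21. Per 1000 reads of Ckm it stayed between 266 and 329 in all 12 libraries, a 1.23-fold range, while Ckm itself ranged 5.83-fold. Tnnt3, fast troponin T, held 3447, 4534 and 7961 CPM against 1370, 2191 and 3003, with no overlap. The SD over the 12 libraries of its log2 ratio to Ckm was 0.06, the lowest of the list, where the median was 0.13, lower than in any other list. The fast myosin Myh1, whose exons overlap the antisense gene Myhas, held 1806, 2925 and 3853 CPM against 633, 1408 and 1638. Its difference of 1.25 ± 0.27 was the largest of the fast list, and Myh2, at 0.92 ± 0.32, overlapped. The count without overlap was 3 of 12 with all gene-assigned reads as the total. With the pads ranked by Myh4 it was 1, and that gene was Myh4 itself, which then set the sides.

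The proteins of excitation and calcium handling lay on the same side. All 21 tested genes were higher in the muscle-rich pads (median 0.92), and 11 did not overlap. That count was 17 without 5 mg/kg replicate 6, 2 with all gene-assigned reads as the total and 1 with the pads ranked by Myh4. Atp2a1, the calcium pump of fast fibres, held 4975, 6418 and 10860 CPM against 2373, 3288 and 4702, a difference of 1.00 ± 0.21. Pvalb, the calcium buffer parvalbumin, differed by 1.03 ± 0.24 and Cacna1s, the voltage sensor of the T-tubule, by 0.94 ± 0.20, both without overlap. Ryr1, the calcium release channel, differed by 0.73 ± 0.23 and overlapped.

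Genes of the sarcomere shared by fibre types were also all higher, 20 of 20 with a median of 1.03, and 6 of them did not overlap. That count rests on single libraries and on the scaling: it was 16 without 5 mg/kg replicate 1, 10 without 5 mg/kg replicate 3, 12 with TMM, 1 with all gene-assigned reads and 0 with the pads ranked by Myh4. Des, the intermediate filament desmin, held 725, 1018 and 1670 CPM against 412, 504 and 722. Ttn, the giant spring protein titin, was the member with the smallest difference, 0.57 ± 0.33, and the most abundant at 21863, 26862 and 47502 CPM against 11211, 18493 and 43550. Its muscle-poor maximum, 5 mg/kg replicate 6, exceeded 5 of the 6 muscle-rich libraries. Reads outside genes made up 20.8% of the reads tallied in that library and 26.6% in 1 mg/kg replicate 6, the highest values of the 12, against 5.58% to 14.1% over the muscle-rich side. Both libraries also had the highest ratio of Ttn to Ckm. The part of reads outside genes in the Ttn level was not tested.

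**Figure D2:**
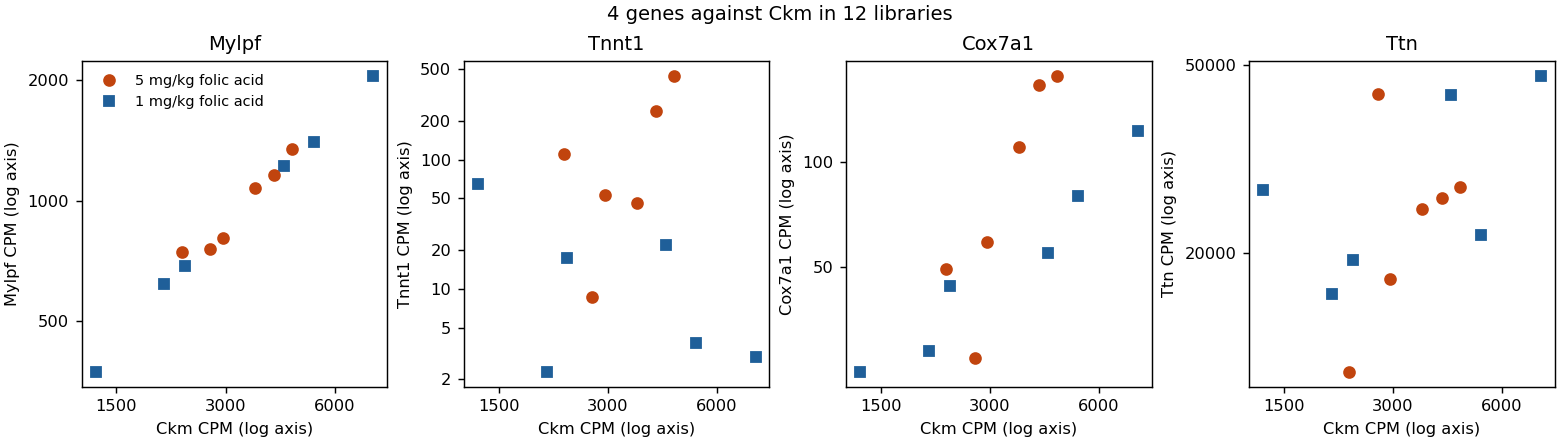
CPM of 4 genes (vertical, log axes) against Ckm CPM (horizontal, log axes), 1 point per library, coloured by folic acid group. Mylpf stays on a narrow band with Ckm, while the slow gene Tnnt1 is spread from 2.29 to 443 CPM with muscle-rich and muscle-poor libraries mixed, and Ttn has 1 muscle-poor library at 43550 CPM among the highest.

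Slow fibre genes did not follow the ranking. Of 11 slow sarcomere genes none separated the sides, although 10 had a higher mean on the muscle-rich side (median 0.70). Tnnt1, slow troponin T, held 2.96, 34.2 and 443 CPM in the muscle-rich and 2.29, 35.5 and 110 CPM in the muscle-poor libraries. The library with most Ckm, 1 mg/kg replicate 3, was among the lowest in Tnnt1 at 2.96 CPM. The highest were 5 mg/kg replicate 5 at 443 and 5 mg/kg replicate 4 at 238, both muscle-rich. Without these 2 libraries the median of the slow list turned to -0.93, and with the pads ranked by Myh4 it was -1.01, where 5 mg/kg replicates 4 and 6 change sides. It was also close to 0 without single libraries, at 0.03 without 5 mg/kg replicate 5, 0.18 without 5 mg/kg replicate 4 and -0.02 without 1 mg/kg replicate 1, and it was 1.28 without 1 mg/kg replicate 3 and 1.15 without 1 mg/kg replicate 5. The slow myosin Myh7 likewise ran from 2.31 to 1989 CPM on the muscle-rich side and from 2.63 to 606 on the muscle-poor side. As a share of the 4 adult myosins per kilobase of exon, Myh7 made up 5.93% in 5 mg/kg replicate 5, the highest of the 12 libraries. Myh4 was the largest share in each library, from 72.4% to 91.8%. The SD of the log2 ratio to Ckm had a median of 2.64 over the slow list.

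**Figure D3:**
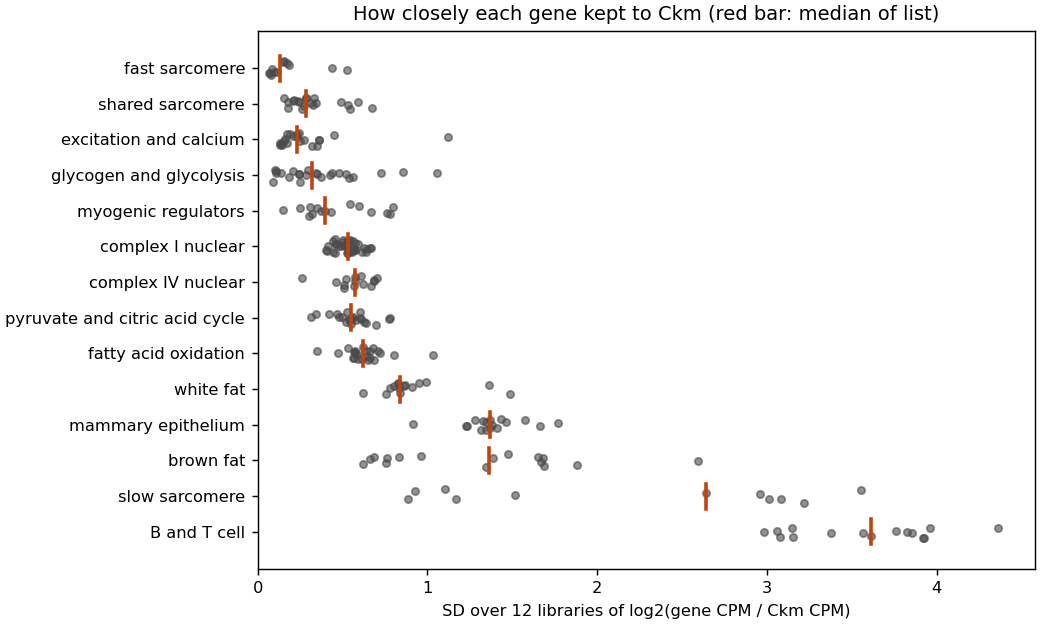
SD over the 12 libraries of log2(gene CPM / Ckm CPM) on the horizontal axis, 1 point per tested gene, by gene list, with a red bar at each list's median. The fast sarcomere list has a median of 0.13, glycogen and glycolysis 0.32, complex I 0.53 and the slow sarcomere list 2.64.

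Enzymes of glycogen breakdown and glycolysis were higher in the muscle-rich pads for 23 of 24 tested genes, with a median difference of 0.76, and 12 did not overlap. With all gene-assigned reads as the total 4 did not overlap, and with the pads ranked by Myh4 1 did not. Pygm, muscle glycogen phosphorylase, held 1459, 1736 and 3162 CPM against 590, 944 and 1241, a difference of 1.01 ± 0.23. Pgam2, the muscle phosphoglycerate mutase, differed by 1.15 ± 0.20, Pfkm, the muscle phosphofructokinase, by 1.08 ± 0.19, and Eno3, muscle enolase, by 1.07 ± 0.20. These 3 enzymes also kept the sides apart. Aldoa, aldolase A, was the most abundant of the list at 3325, 3865 and 5413 CPM against 1330, 2366 and 2515. The exception was Hk1, the hexokinase found in most tissues, at 25.0, 40.1 and 50.5 CPM against 48.7, 53.5 and 69.0, a difference of -0.57 ± 0.17 with overlap. Hk2, the hexokinase of muscle and fat, was higher by 0.55 ± 0.21.

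The list for buffering of creatine, oxygen and adenine nucleotides also held Fabp3, which carries fatty acids. Of its 10 tested genes without Ckm, 7 were higher and 3, Fabp3, Ampd1 and Ak1, did not overlap (median 0.72). Fabp3, the fatty acid carrier of muscle and heart, held 89.5, 134 and 274 CPM against 36.8, 58.5 and 89.0, a difference of 1.31 ± 0.33 without overlap. Ckmt2, the mitochondrial creatine kinase of sarcomeres, differed by 1.33 ± 0.27, and Mb, myoglobin, by 1.28 ± 0.36, both with overlap. Ampd1, the AMP deaminase of muscle, held 183, 252 and 449 CPM against 73.2, 153 and 178 and did not overlap.

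Genes of the respiratory chain were higher on average in the muscle-rich pads, but few separated the sides. In complex I, the NADH dehydrogenase, all 37 nuclear genes were higher by a median of 0.59 and only Ndufa5 did not overlap, at 73.6, 99.8 and 130 CPM against 43.2, 58.6 and 69.0. Without 1 mg/kg replicate 2, the muscle-rich library low in these genes, 19 of the 37 did not overlap. That leave-out is given here and for the mitochondrial lists below because the library was low in them. A higher count therefore follows in part from the choice. Over all 18615 genes it moved the count of higher genes from 257 to 405. With each single library left out the complex I count ran from 1 to 19. The 4 genes of complex II had a median of 0.61, the 9 nuclear genes of complex III 0.68, the 14 of complex IV 0.71 and the 15 of complex V, the ATP synthase, 0.52. Atp5b, its catalytic beta subunit, held 1130, 1607 and 2257 CPM against 720, 1122 and 1463. Over these 4 complexes the gene without overlap was Cox6a2, the muscle isoform of a complex IV subunit. Without 1 mg/kg replicate 2 there were 1 in complex II, 2 in complex III, 8 in complex IV and 6 in complex V.

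The mRNAs encoded by the mitochondrial genome showed the same pattern. The 8 of 13 that passed the filter on low counts were higher by a median of 0.73 and each overlapped. Without 1 mg/kg replicate 2, 2 of them did not. mt-Co1, the catalytic subunit of complex IV, held 33143, 50037 and 63961 CPM against 22043, 28262 and 40784. mt-Nd4l, mt-Co2, mt-Co3, mt-Atp6 and mt-Atp8 did not pass the filter. The mitochondrial rRNA genes took 44.1% to 59.5% of gene-assigned reads in the muscle-rich and 39.2% to 49.5% in the muscle-poor libraries.

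Of 23 genes of pyruvate use and the citric acid cycle all were higher (median 0.64) and 1, the pyruvate dehydrogenase kinase gene Pdk2, did not overlap. Without 1 mg/kg replicate 2 that count was 6, and it was 3 without 5 mg/kg replicate 1 and 2 without 1 mg/kg replicate 5, 5 mg/kg replicate 3 or 5 mg/kg replicate 2. Cs, citrate synthase, held 430, 628 and 860 CPM against 276, 418 and 555. Pdk4, the kinase that shuts pyruvate dehydrogenase when fat is burned, differed by 1.20 ± 0.28 with overlap. In fatty acid oxidation 21 of 23 genes were higher (median 0.62) and 3, Fabp3, Ucp3 and Mlycd, did not overlap. Fabp3 is counted both here and in the buffering list. Hadha, a subunit of the mitochondrial trifunctional protein, held 447, 747 and 1045 CPM against 308, 457 and 544. Cpt1a, the liver form of carnitine palmitoyltransferase, was lower at 52.1, 88.0 and 109 CPM against 94.6, 127 and 148, a difference of -0.55 ± 0.18 with overlap. Genes of mitochondrial upkeep had a median of 0.23, with 18 of 22 higher, but no clear direction under other settings: it was 0.00711 with 11 of 22 higher when all gene-assigned reads were the total, and -0.00696 with the pads ranked by Myh4. Mfn1, a mitochondrial fusion protein, and the nuclear receptor Esrrg did not overlap, the latter at 16.8, 22.2 and 33.2 CPM against 8.44, 11.9 and 13.3. Without 1 mg/kg replicate 2, 5 genes of this list did not overlap.

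Brown fat genes lay on the same side as the mitochondrial lists. All 16 tested markers of brown fat, a mitochondria-rich tissue, had a higher mean on the muscle-rich side (median 1.50) and each overlapped. Their summed level was 235 to 2868 CPM in the muscle-rich and 171 to 797 CPM in the muscle-poor libraries, and no member was at 0 in all 12 libraries. Ucp1, the uncoupling protein that defines brown fat, held 19.4, 875 and 1483 CPM against 1.90, 128 and 317, and its muscle-rich minimum was 1 mg/kg replicate 2. Without the 2 libraries highest in Ucp1, 5 mg/kg replicates 4 and 5, the brown fat median was 0.94, that of complex I 0.41 and of fatty acid oxidation 0.45, while the fast sarcomere list kept 1.16. With the pads ranked by Myh4 the brown fat median was 0.04, complex I 0.19 and fatty acid oxidation 0.17. The fast list, which includes Myh4 itself, had 0.91, and glycogen and glycolysis had 0.56. The part of brown fat in the mitochondrial differences was not tested.

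**Figure D4:**
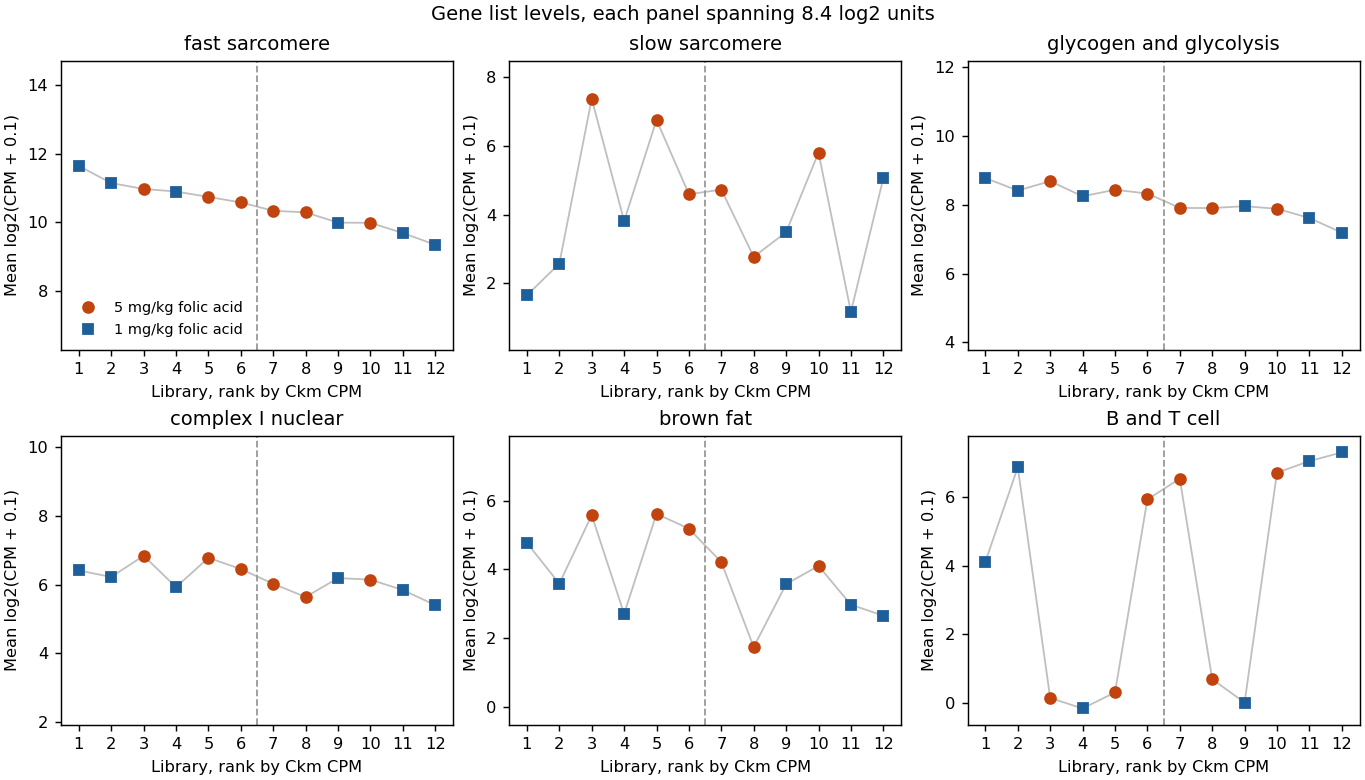
Mean log2(CPM + 0.1) of the tested genes of 6 lists (vertical axes, each spanning 8.4 log2 units) in the 12 libraries ordered by Ckm rank (horizontal axes), coloured by folic acid group, with a dashed line between the sides. Fast sarcomere levels step down with rank, and the brown fat, slow sarcomere and B and T cell lists scatter across the line.

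Pairs of related genes split the energy genes further. In most pairs the first gene is the form of muscle and the second is found more widely, while Atp2a1 and Atp2a2 are the calcium pumps of fast and slow fibres. In 12 of 13 pairs the first gene had the larger difference. Cpt1b, counted among these, was low, so its difference is uncertain. Its log2 ratio to Cpt1a had a median of -6.53 in the muscle-rich and -7.94 in the muscle-poor libraries. Slc25a4, the ADP/ATP carrier of heart and muscle, differed by 0.98 ± 0.18 without overlap, and the widely expressed Slc25a5 by -0.23 ± 0.17 with overlap. Cox7a1, the muscle and heart form of a complex IV subunit, held 54.7, 117 and 176 CPM against 24.9, 36.4 and 58.9, a difference of 1.57 ± 0.34. Its partner Cox7a2 held 59.4, 91.6 and 147 CPM against 39.8, 69.7 and 89.7, a difference of 0.54 ± 0.29. The ratio of the pair did not overlap between the sides, which was also so for Cox8b over Cox8a, Fabp3 over Fabp4 and Ckmt2 over Ckb. Cox7a1 and Cox8b are also expressed in brown fat. Fabp3 was highest in 5 mg/kg replicates 4 and 5, at 274 and 216 CPM, the libraries highest in Ucp1. In 1 mg/kg replicate 3, the library highest in Ckm, Fabp3 held 161 CPM. Cox6a2, which differed by 1.28 ± 0.26, held 125, 193 and 273 CPM against 52.7, 83.9 and 121 without overlap, though its exons overlap those of Itgad. The pair in the other direction was Ldha, the lactate dehydrogenase subunit of fast muscle, at 0.61 ± 0.16 and Ldhb, that of heart and slow muscle, at 1.04 ± 0.32.

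**Figure D5:**
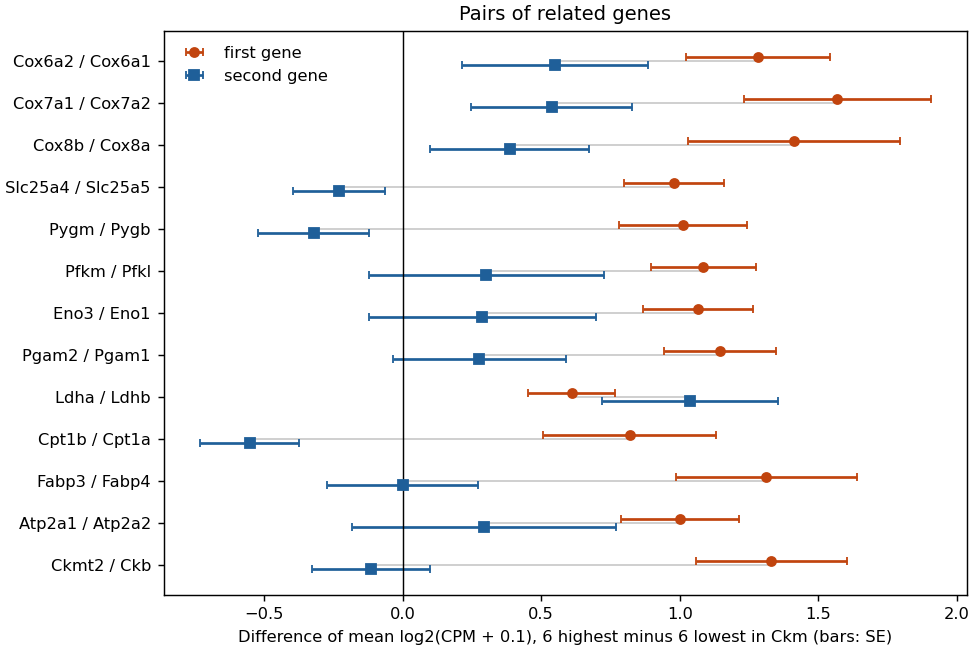
Difference of mean log2(CPM + 0.1), muscle-rich minus muscle-poor, for both genes of 13 pairs (horizontal axis, bars are SE over 6 and 6 libraries). The first gene lies to the right of its partner in 12 pairs, and Ldha lies to the left of Ldhb.

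Most regulators of muscle identity were also higher in the muscle-rich pads. Of 15 myogenic regulators 13 were higher (median 0.69) and 3, Myf5, Myf6 and Smyd1, did not overlap, a count that was 6 without 5 mg/kg replicate 1. Myf6, the MyoD-family factor of mature fibres, held 13.9, 21.2 and 39.4 CPM against 7.89, 11.5 and 13.8, and Smyd1, a methyltransferase of the sarcomere programme, 131, 174 and 266 against 66.3, 91.6 and 119. Myod1 was low, at 0.656, 1.46 and 2.07 CPM against 0.476, 0.753 and 1.34. Pax7, the marker of muscle stem cells, held 0.812, 1.15 and 1.34 CPM against 0.514, 0.594 and 0.752 without overlap. Heart markers gave no such difference: the median over 5 of 9 that passed the filter was -0.01, and Nppa, Nppb, Myl7 and Mybpc3 did not pass.

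The 12 largest differences among genes without overlap and with a mean of at least 1 CPM included further muscle genes. Predicted gene models and immunoglobulin and T-cell receptor segments were left out of this choice. Fndc5, the precursor of irisin, held 19.0, 28.1 and 48.9 CPM against 9.30, 12.2 and 17.2, a difference of 1.28. Its highest levels were in 5 mg/kg replicates 5 and 4, at 48.9 and 45.3 CPM, against 29.3 in 1 mg/kg replicate 3. Mylk2, the myosin light chain kinase of skeletal muscle, held 169, 220 and 441 CPM against 61.8, 96.8 and 145. Gmpr, a GMP reductase, differed by 1.30 and Kcnc4, a voltage-gated potassium channel, by 1.28. Myoc, myocilin, had the largest difference, 1.45, at 23.8, 37.1 and 61.3 CPM against 4.25, 15.4 and 17.9. Plet1os, at 1.41, overlaps Plet1 on the other strand, and the counts cannot separate such reads without strand.

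Genes lower in the muscle-rich pads depended on the scaling. Among genes chosen by the same rule Mycl, a MYC-family factor, differed most. Its difference was -1.17, at 3.73, 12.7 and 15.6 CPM against 16.0, 19.9 and 47.4, and -0.89 with TMM scaling. Ccnd2, cyclin D2, held 121, 173 and 227 CPM against 231, 280 and 385, a difference of -0.73 that was -0.45 with TMM. Cers6, a ceramide synthase, differed by -0.74 and by -0.46 with TMM. With TMM scaling 32 genes were lower without overlap in place of 242. Reads outside genes also differed between the sides. They were 5.58%, 9.97% and 14.1% of reads tallied (lowest, median, highest) on the muscle-rich side, against 10.6%, 16.3% and 26.6%. The part of such reads in the differences between the sides was not tested.

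Markers of other tissues in the pad were counted beside these results. All 17 mammary epithelium markers had a lower mean on the muscle-rich side (median -0.65) and each overlapped, with a summed level of 425 to 2753 CPM against 1069 to 2275. The median was -0.36 without 1 mg/kg replicate 5 and -0.42 without 5 mg/kg replicate 5, the 2 libraries lowest in these markers, and -0.37 with TMM. All 15 B and T cell markers were lower (median -1.89) and each overlapped, with summed levels of 13.6 to 2670 CPM against 15.4 to 3504. That median was -0.58 without 5 mg/kg replicates 4 and 5, -1.25 without 1 mg/kg replicate 2 and -2.85 without 1 mg/kg replicate 4. White fat markers had a median of -0.10 and summed levels of 16175 to 24302 CPM against 10503 to 30799, and the direction of that median changed with the scaling. Endothelium, macrophage, smooth muscle and Schwann cell medians also changed direction with the scaling. The part of these tissues in the differences between the sides was not tested.

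Folic acid group was divided evenly over the sides. Of the 6 muscle-rich libraries 3 came from 5 mg/kg and 3 from 1 mg/kg, and the same held for the muscle-poor (Fisher's exact test, two-sided, p = 1). Ckm was 2270, 3282 and 4583 CPM in the 5 mg/kg pads. In the 1 mg/kg pads it was 1315, 3334 and 7667 CPM, so the range of the first lay inside that of the second. The means were 3370 ± 878 and 3824 ± 2402 CPM (SD, n = 6 each). The difference of mean log2 level, 5 minus 1 mg/kg, was 0.030 (exact two-sided permutation test over 924 assignments, p = 0.944, where 0.00216 is the smallest possible). The 1 mg/kg libraries held both the highest and the lowest Ckm, with an SD of log2 CPM of 0.96 against 0.38 at 5 mg/kg, and this difference in spread was not tested.

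Within each folic acid group 3 muscle-rich and 3 muscle-poor libraries could be set side by side. Ckm itself, which set the sides, was less far apart within 5 mg/kg, at 3613 to 4583 CPM against 2270 to 2950. Within 1 mg/kg it was 4346 to 7667 CPM against 1315 to 2322. The median of the fast sarcomere list, which kept close to Ckm, was 0.59 within 5 mg/kg and 1.59 within 1 mg/kg. The order of the mitochondrial lists was the other way: complex I had 0.77 within 5 mg/kg and 0.39 within 1 mg/kg, and fatty acid oxidation 0.94 and 0.38. Brown fat genes had 1.69 within 5 mg/kg and 0.55 within 1 mg/kg. The slow sarcomere list had 2.19 and -0.75. These differences between the folic acid groups were not tested.

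No gene differed by folic acid past an adjusted p of 0.05 in edgeR's quasi-likelihood test over all 12 libraries, 0 of 18647 (0.0%). Before adjustment 359 genes had a p under 0.05, where 5% of the genes tested is 932. DESeq2 also called 0, and 776 genes had an unadjusted p under 0.05. With log2 Ckm as a covariate edgeR again called 0 genes (611 at an unadjusted p under 0.05), and with the side as a covariate 0 (491). Acta1 differed by 0.04 ± 0.44 and Myh4 by -0.31 ± 0.47 in log2 fold change, 5 over 1 mg/kg, with intervals of -0.92 to 1.00 and -1.32 to 0.70. The slow list lay higher at 5 mg/kg in 11 of 11 genes (median 3.35), and the gene with the smallest p was Tnnt1 at 3.35 ± 1.06 (edgeR, adjusted p = 0.943). The fast list had 2 genes higher and 10 lower (median -0.19). The 37 complex I genes all had a higher mean in the 5 mg/kg pads (median 0.43), and none passed the threshold. This direction was not particular to these lists. It held for 16 of 16 brown fat genes (median 1.23), 17 of 17 of lipid synthesis (0.69) and 14 of 14 matrix genes (0.48). B and T cell genes were lower at 5 mg/kg in 15 of 15 and mammary epithelium genes in 12 of 17. The share over all genes was not counted. With log2 Ckm held fixed the Tnnt1 fold change was 3.77, and it did not pass (edgeR, adjusted p = 0.888).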

How the data were processed

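Messenger RNA was measured in 12 libraries. Per the labels' protocols, the library kit was TruSeq RNA v2, which does not mark strand. The values the authors deposited are raw counts of reads for each gene. The submitters' processing notes name STAR, mm10 and HTSeq 0.6.1; the STAR version, annotation and strand setting were not given in the sources used here. Tally lines outside genes, 16.7% to 35.7% of reads tallied, stayed out of library sizes and tests. Depth was 48.2 to 75.3 M gene-assigned reads, and 27.3 to 36.3 M without mt-Rnr1 and mt-Rnr2. Coordinates and exon lengths came from GENCODE vM21 (GRCm38).

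No library pair within a folic acid group was a copy: the lowest chi-square over 30 pairs was 41.7 per degree of freedom. Sides were compared by the difference of mean log2(CPM + 0.1), over genes with the filterByExpr minimum of 10 reads. Folic acid was tested with edgeR 4.0.16 (R 4.3.3; TMM, quasi-likelihood, Benjamini-Hochberg adjustment), which was also tested on simulated data. The simulation gave every gene the same spread between libraries, so it does not measure how small a difference these libraries could show. SE of a fold change was derived from its F statistic, and intervals are 95%. Members, the 31 gene lists and tests were chosen with earlier results of these data known. Named genes were the 3 markers, every gene of the pairs, and of each list the largest, smallest and most abundant. They also included the 12 largest differences in each direction without overlap and with a mean of at least 1 CPM. Predicted gene models and immunoglobulin and T-cell receptor segments were left out of these 12. Further members were named as examples chosen after their values were seen. Of 447 list genes, 431 passed the filter. Alternatives covered scaling, filter, pseudocount, ranking gene, the border and each library left out. Leaving out 5 mg/kg replicates 4 and 5 together and the comparisons within each folic acid group were chosen after seeing the data.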

Additional observations from a re-analysis of the deposited data

Results flagged for a closer look

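The mammary epithelium list was low in 1 library of the 5 mg/kg group. In 5 mg/kg replicate 5, a muscle-rich pad, the mean log2 CPM of its tested genes was 3.63, and the next lowest of the 6 libraries at 5 mg/kg was 5.07. The gap to the next library was 0.679 of the range of the group, above Dixon's critical value for 6 values. Among the 1 mg/kg libraries replicate 5, also muscle-rich, was as low at 3.63, and replicate 3 lay between it and the rest at 4.59. Of 92 groups of 6 values examined this was the 1 case, and a rate of 1 in 20 would give 4.6. The same library was among the highest in Ucp1 and the highest in Tnnt1.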

How the results depend on the processing

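The counts without overlap moved with scaling and with ranking by Myh4. Acta1 did not overlap between the sides, so ranking by Acta1 gave the same sides and the same counts, 257 and 242. Those 257 include Acta1 itself. Higher and lower genes numbered 257 and 242, and 444 and 32 with TMM, 56 and 430 with all gene-assigned reads as the total, 37 and 17 with the pads ranked by Myh4, and 493 and 535 without the libraries ranked 6 and 7. The 37 higher genes include Myh4, which set the sides in that ranking. Leaving the muscle genes out of the total gave 78 lower. With 1 library left out the counts ran from 261 to 443 higher and from 245 to 809 lower. The higher count was 405 without 1 mg/kg replicate 2, 443 without 5 mg/kg replicate 1 and 400 without 5 mg/kg replicate 6. The lower count was 809 without 1 mg/kg replicate 4, 723 without 1 mg/kg replicate 2, 502 without 1 mg/kg replicate 5 and 403 without 5 mg/kg replicate 1. With 3 against 3 libraries they were 1180 and 3967 within 5 mg/kg and 890 and 1092 within 1 mg/kg; fewer libraries overlap less readily. The Ckm difference by folic acid was -0.065 with all gene-assigned reads (exact permutation p = 0.870) and ran from -0.23 to 0.28 with 1 library left out. Over 18 fits for folic acid, each called 0 genes. No paired analysis was possible because the labels give no number that the groups share, and replicate numbers here only name samples. The sides come from 12 libraries without a wide gap between them, and the cause of these changes was not tested.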

Other observations

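The 75 muscle genes took 5.31% of reads in the lowest library and 18.8% in the highest, so the total by which each CPM is divided carries this range. Tendon markers, which could come with muscle, had a median difference of 0.10 over 7 genes and overlapped in each. That median was -0.08 with all gene-assigned reads as the total, -0.21 with the pads ranked by Myh4, and ran from -0.27 to 0.19 with 1 library left out. Tendon genes had summed levels of 38.5 to 75.1 CPM on the muscle-rich and 27.0 to 38.6 CPM on the muscle-poor side. Matrix genes had a median of -0.32 over 14 genes, beside -0.32 over all genes. Epidermis markers had summed levels of 5.38 to 198 CPM on the muscle-rich side and 7.18 to 46.5 CPM on the muscle-poor side.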
